A study of Mus musculus with 4 samples.

Results

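Endothelial nuclei were sought in whole mouse testis by a marker gate on single-nucleus RNA-seq barcodes. A barcode entered the gate when it held at least 500 UMIs, 500 to 5000 genes, and a UMI in at least 3 of 10 endothelial genes. The 10 genes were the receptors Flt1, Kdr and Tek, the junction proteins Pecam1 and Cdh5, the phosphatase Ptprb, the co-receptor Eng, the sialomucin Emcn, the secreted factor Egfl7 and the transcription factor Mecom. The gate held 327 of the 43625 barcodes within the UMI and gene limits. WT replicate 1 gave 114 gated nuclei, WT replicate 2 gave 88, Dhx37-/- replicate 1 gave 84 and Dhx37-/- replicate 2 gave 41. The measured values of these 10 genes chose the nuclei, so the gate was selected on these levels, which are given as a description and were not tested.

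Testes of male mice aged 8 weeks gave the nuclei, which were profiled by droplet-based 3′ RNA-seq (10x Genomics) as 2 WT libraries and 2 Dhx37-/- libraries, named biological replicates by the labels. Dhx37-/- stands for mice with floxed Dhx37 alleles and an Amh-Cre transgene, in which the Amh promoter drives Cre recombinase in Sertoli cells. Dhx37 encodes a nucleolar RNA helicase of ribosome assembly. Endothelial cells are not the cells in which this Cre is known to act, and the labels and methods used here do not give the Cre or floxed status of WT mice or the number of animals behind each library. Over all barcodes within the limits the median UMI count per library was 2857 to 3870, and 25 to 44 barcode sequences were shared by each pair of libraries, of which 0 were gated in both. Dhx37 itself gave 3, 7, 3 and 4 UMIs in the gated nuclei of WT replicates 1 and 2 and Dhx37-/- replicates 1 and 2. These counts are too few to order the libraries, and tags from the 3′ end lie outside the exon that Cre removes, so they check no label.

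Endothelial cells line blood and lymphatic vessels. VEGF receptors, the angiopoietin receptor Tek, Notch and BMP signals set whether a vessel is arterial, venous or lymphatic. In the testis blood capillaries run in the interstitium between the seminiferous tubules and supply Leydig cells and germ cells with factors as well as blood. Lymphatic endothelial cells are told from blood endothelial cells by the transcription factor Prox1, the receptor Flt4, the hyaluronan receptor Lyve1, the matrix protein Mmrn1 and the chemokine Ccl21a.

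The number of gate markers per barcode split the barcodes in an uneven way. Over the 4 libraries 30084 barcodes held 0 markers, 11255 held 1 and 1959 held 2. Of the gated nuclei 190 held exactly 3 markers, which is just inside the gate, and 28 held 4. Only 18 nuclei held 5, but 20 held 6, 34 held 7, 15 held 8, 19 held 9 and 3 held all 10. The curve therefore fell steeply to 5 markers and had a second, lower mode at 7.

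**Figure D1:**
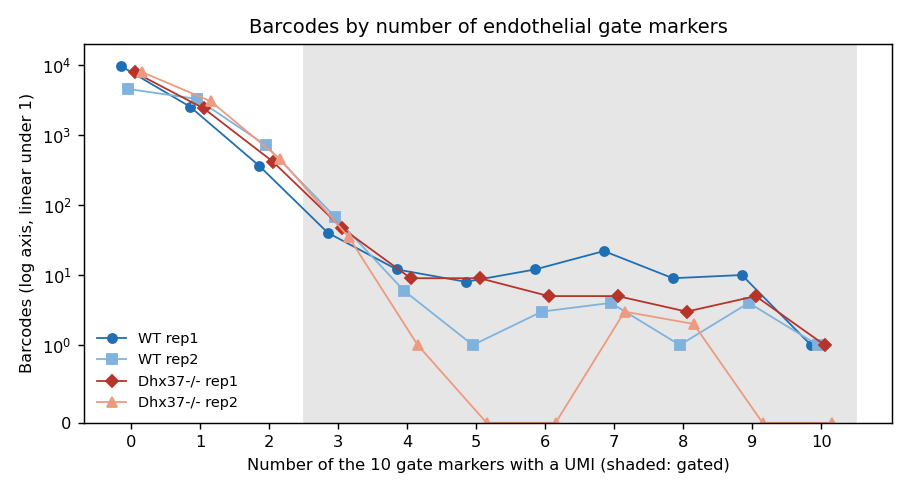
Barcodes in each library (y axis, log scale, linear under 1) against the number of the 10 gate markers with a UMI (x axis), with 1 line per library and the gated range shaded. Counts fall from 4566 to 9675 barcodes with 0 markers to 35 to 68 with 3 markers, and WT replicate 1 rises again to 22 nuclei with 7 markers.

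Nuclei with 5 or more markers and nuclei with exactly 3 were unlike each other in genes that the gate did not use. A list of 40 other endothelial genes, among them the tight junction gene Cldn5, the transcription factors Erg, Fli1 and Sox18 and the receptor Tie1, was summed per library in CPM, UMIs scaled to a total of 1000000 for the nuclei named. In nuclei with 5 or more markers the summed level was 18781 and 20352 CPM in WT and 16883 and 16847 CPM in Dhx37-/-. In nuclei with exactly 3 markers it was 1154 and 998 CPM in WT and 1177 and 1185 CPM in Dhx37-/-. Barcodes with 0 markers gave 905 and 1095 CPM in WT and 986 and 930 CPM in Dhx37-/-. In all 4 libraries the nuclei with exactly 3 markers thus sat close to barcodes without a single gate marker, and far below nuclei with 5 or more. The endothelial label was not met by most nuclei that hold exactly 3 markers, and the nuclei are called gated nuclei here for that reason.

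**Figure D2:**
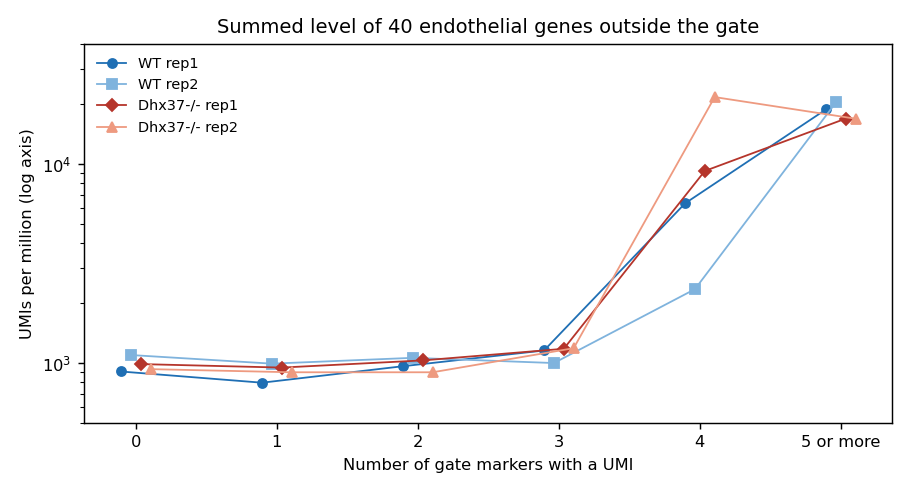
Summed level of 40 endothelial genes outside the gate (y axis, CPM, log scale) in barcodes with 0, 1, 2, 3, 4 and 5 or more gate markers (x axis), with 1 line per library. The 4 libraries lie between 998 and 1185 at 3 markers and between 16847 and 20352 at 5 or more, while the 4-marker point of Dhx37-/- replicate 2 is a single nucleus.

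The markers that let nuclei in differed between the ends of the gate. Of the 190 nuclei with exactly 3 markers, 169 held Tek, 89 held Flt1 and 70 held Emcn, in 51 different sets of 3. Of the 109 nuclei with 5 or more, 102 held Ptprb, 98 Mecom, 91 Tek and 87 Flt1. Tek, the angiopoietin receptor, also had a UMI in 12.9% and 34.5% of barcodes outside the gate in WT and in 15.1% and 20% in Dhx37-/-, or in 5.19% to 13.8% after thinning to 1000 UMIs. Among barcodes outside the gate with 3 or more round spermatid markers, Tek had a UMI in 23% and 49.3% (WT) and 31.2% and 32.1% (Dhx37-/-), at median depths of 3736 to 4426 UMIs. Among those with 3 or more Leydig cell markers it had one in 4.58% and 7.14% (WT) and 7.75% and 11.1% (Dhx37-/-), at median depths of 4390 to 5796 UMIs. Tek was therefore more often seen in barcodes with spermatid markers than in deeper barcodes with Leydig markers in each library. Markers of round spermatids were at 1397 to 2016 CPM in nuclei with exactly 3 gate markers, at 409 to 833 CPM in nuclei with 5 or more and at 1311 to 1598 CPM outside the gate.

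Markers of other cell classes were compared between nuclei with 5 or more markers and barcodes outside the gate. The 8 pericyte and smooth muscle genes gave 0 to 27.4 CPM, against 18.9 to 29.7 CPM outside the gate, and exceeded it only in WT replicate 1. The 9 Leydig genes gave 66.8 to 179 CPM against 210 to 744 CPM outside. The 10 macrophage genes, at 119 to 257 CPM against 168 to 283 CPM, were above the outside level in both WT libraries and below it in both Dhx37-/- libraries. The 8 T cell genes, at 21.9 to 179 CPM against 95.9 to 150 CPM, were above it only in Dhx37-/- replicate 2. The peritubular myoid list, at 68.1 to 245 CPM against 87.1 to 147 CPM, and the spermatogonia list, at 178 to 252 CPM against 160 to 197 CPM, were above the outside level in 3 of 4 libraries. With libraries pooled, Smtn gave 76.7% of the myoid UMIs, and the list without it was at 30.1 against 109 CPM outside. Zbtb16 gave 83.8% of the spermatogonia UMIs (36.1 against 155 CPM without it) and Mertk 61% of the macrophage UMIs (90.2 against 206 CPM without it). The fibroblast list, at 1369 to 3117 CPM against 132 to 328 CPM outside, and the Sertoli list, at 655 to 1180 CPM against 160 to 391 CPM, were above it in all 4 libraries. Of the fibroblast UMIs in these nuclei 99% came from the transcription factor Ebf1, without which the list was at 21 CPM against 128 CPM outside. Of the Sertoli UMIs 58.1% came from Wt1, and without it the list was still at 403 CPM against 274 CPM outside. Of its other genes Fshr had 0 UMIs and Sox9 had 1, against 12.4 to 18.5 and 3.71 to 10.6 CPM outside. Amh had 0 UMIs too, which tells nothing, since it was at 0.032 to 0.275 CPM outside.

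Scrublet called 6.38% to 22.9% of nuclei with exactly 3 markers as doublets and 3.57% to 20% of those with 5 or more (1 of 5 nuclei in Dhx37-/- replicate 2), against 3.32% to 4.03% of all barcodes. Transcripts of elongating spermatids are found as free RNA in all droplets. In nuclei with 5 or more markers these transcripts gave 3545 and 3295 CPM in WT and 10094 and 7263 CPM in Dhx37-/-. Outside the gate they gave 7688 and 8432 CPM in WT and 16329 and 10412 CPM in Dhx37-/-. From 4 of them, Prm1, Prm2, Tnp1 and Tnp2, free RNA was estimated at 16.5% to 22% of the UMIs of gated nuclei. The estimate takes all UMIs of these 4 genes as free RNA, also in gated nuclei with spermatid markers. In the endothelial groups described below it was 17.9% and 10.7% in WT and 21.4% and 22.3% in Dhx37-/-.

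Gated nuclei made up 0.898% of barcodes in WT replicate 1 (95% Wilson interval 0.748 to 1.08) and 1.02% in WT replicate 2 (0.827 to 1.25). In Dhx37-/- they made up 0.78% (0.63 to 0.964) and 0.356% (0.263 to 0.483). Both Dhx37-/- libraries lay below both WT libraries, with means of 0.958% ± 0.0854 (SD, n = 2) and 0.568% ± 0.299 (SD, n = 2). The difference of -0.39 percentage points gave p = 0.333 by an exact two-sided permutation test, which is the smallest p that 2 against 2 libraries allow. With 5 or more markers required, the genotypes overlapped: 62 and 14 nuclei in WT and 28 and 5 in Dhx37-/-, a difference of -0.173 points (exact permutation p = 0.667). They overlapped as well when Tek was left out of the gate (-0.177 points, exact permutation p = 0.667), with 4 or more markers (-0.209 points, p = 0.667), with barcodes thinned to 1000 UMIs before the gate (-0.214 points, p = 0.667) and with 2 or more markers (-2.02 points, p = 1). A share of nuclei does not tell fewer endothelial cells from more nuclei of other kinds, and the intervals cover counting error only.

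The gate also left out some nuclei with many endothelial transcripts. Barcodes with a UMI in 10 or more of the 40 other endothelial genes numbered 80 and 15 in WT and 45 and 12 in Dhx37-/-, of which 71, 14, 35 and 6 were gated. They made up 0.63% and 0.174% of barcodes in WT and 0.418% and 0.104% in Dhx37-/-, so the genotypes overlapped. WT replicate 1 and Dhx37-/- replicate 1 were higher by this measure than the replicate 2 of their own genotype.

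Clustering of the gated nuclei without the 10 gate markers gave 8 groups. In 3 of them, with 129 nuclei, the 40 other endothelial genes were at 14620 to 21345 CPM. In the other 5, with 198 nuclei, they were at 648 to 1308 CPM, close to the 949 CPM outside the gate. The limit that separates these kinds of groups, 5 times the level outside the gate, was set after the groups had been seen. The endothelial groups held 71 and 15 nuclei in WT and 36 and 7 in Dhx37-/-. Every gene of the nuclei was open to the clustering, so differences between groups are described and carry no test.

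Groups 1 and 2, of 42 and 61 nuclei, had Slco1a4, Abcb1a, Ptprb and Mecom among their leading genes. Gate markers were raised in all 8 groups, as the gate itself fixes, so the groups were told apart by genes outside it. The 40 other endothelial genes summed to 15928 and 21345 CPM in groups 1 and 2, to 14620 CPM in group 6 and to 648 to 1308 CPM in the other 5 groups, a description since the clustering used these genes. Groups 1 and 2 are endothelial-like by these genes, held 0 of the 7 lymphatic markers at raised levels, and are called blood vascular here. They also held 3 and 2 Sertoli markers at raised levels. Group 6, of 26 nuclei, was led by Mmrn1, Ccl21a and Reln, with 5 of the 7 lymphatic markers at raised levels, and is lymphatic endothelial-like. The lymphatic group held a median of 4 gate markers per nucleus, and 10 of its 26 nuclei held 5 or more, so a limit of 5 favoured blood vascular nuclei. Of the remaining groups, group 3 (58 nuclei, 24 of them called as doublets) was led by Csmd1, the fibroblast genes Adamts5 and Ebf1, and Flt1. Of the others, group 4 was led by Gm39388, Gm40662 and Flt1, group 5 by the gate markers Flt1 and Cdh5, group 7 by S100a2 (433 against 1.76 CPM in all other barcodes), and group 8 by the gate marker Emcn. These 4 groups held 1 to 3 gate markers at raised levels. Group 8 also held 4 round spermatid and 2 spermatocyte markers, group 5 held 2 round spermatid markers, and all 4 stayed unnamed.

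The 15 genes outside the gate that were most raised in gated nuclei came from the endothelial groups. Slco1a4 (ENSMUSG00000030237), an organic anion transporter of blood-tissue barriers, had the highest log2 ratio of gated nuclei to other barcodes, 4.80 with 10 CPM added to both. In the endothelial groups it gave 273 and 99 UMIs in WT and 89 and 26 in Dhx37-/-, or 1330, 2124, 831 and 1279 CPM, against 0.544 to 1.9 CPM outside the gate. It was present in the endothelial groups of each library. In these summed groups its CPM was lower in each Dhx37-/- library than in either WT library, and edgeR did not call it there. All these UMIs lay in the blood vascular groups. Its level in those alone was 1479 and 2534 CPM in WT and 1299 and 1844 CPM in Dhx37-/-, so the genotypes overlapped.

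Abcb1a (ENSMUSG00000040584), the P-glycoprotein drug pump, gave 236 and 67 UMIs in the endothelial groups of WT and 79 and 10 in Dhx37-/-. Its level was 1150 and 1437 CPM in WT and 737 and 492 CPM in Dhx37-/-, so both Dhx37-/- libraries lay below both WT libraries. Both genes were at 0 UMIs in the lymphatic group, where 3 UMIs would be 41 CPM, and at 1590 and 1280 CPM in the blood vascular groups. The vascular growth factor Vegfc showed the same split, with 666 CPM in blood vascular nuclei and 0 UMIs in lymphatic nuclei. Ptn (699 against 41 CPM), Rundc3b (1378 against 13.7 CPM) and Ehd4 (989 against 109 CPM) were also higher in the blood vascular groups.

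Mmrn1 (ENSMUSG00000054641), multimerin 1, and Ccl21a (ENSMUSG00000094686), which draws dendritic cells and T cells into lymphatic vessels, marked the other side. Mmrn1 was at 1956 CPM in the lymphatic group and at 0 UMIs in the blood vascular groups, where 3 UMIs would be 9.8 CPM. Its UMIs in the lymphatic group were 51 and 11 in WT and 73 and 8 in Dhx37-/-. Ccl21a was at 1833 against 3.27 CPM, with near-identical gene copies between which its reads could be split. With libraries pooled, Cldn5, Adgrl4, Fli1, Sema6a, Ldb2, Prex2 and Zfp521 were at 601 to 1169 CPM in blood vascular and 315 to 2106 CPM in lymphatic nuclei. In lymphatic nuclei Cldn5 rested mainly on Dhx37-/-, with 2 and 0 UMIs in WT and 19 and 5 in Dhx37-/-, and Sema6a, Ldb2 and Prex2 had 0 UMIs in the 1 lymphatic nucleus of WT replicate 2. All 15 genes were at 0.902 to 28 CPM in the other gated groups.

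**Figure D3:**
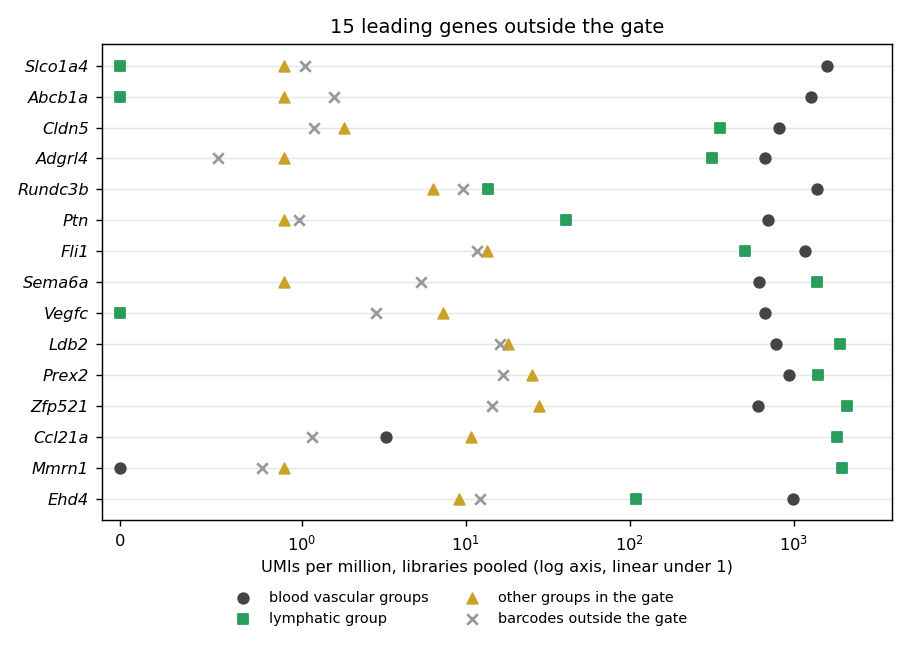
Level of the 15 leading genes outside the gate (rows) in CPM with libraries pooled (x axis, log scale, linear under 1), in blood vascular groups, the lymphatic group, the other gated groups and barcodes outside the gate. Slco1a4, Abcb1a and Vegfc sit at 0 in the lymphatic group, Mmrn1 sits at 0 in the blood vascular groups, and all 15 sit at or under 28 in the other gated groups.

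Promoters of 1 blood vascular and 1 lymphatic leading gene are shown for the base context of genes that split the endothelial groups. Each is 250 bases before and 50 after the annotated start, 5′ to 3′ along the gene, from RefSeq on GRCm38.p6. The Abcb1a window is chr5:8566841-8567140 on the plus strand and the Mmrn1 window is chr6:60944067-60944366 on the plus strand. Capitals mark a match to the FOX letters TGTTTAC or their reverse complement.
Abcb1a: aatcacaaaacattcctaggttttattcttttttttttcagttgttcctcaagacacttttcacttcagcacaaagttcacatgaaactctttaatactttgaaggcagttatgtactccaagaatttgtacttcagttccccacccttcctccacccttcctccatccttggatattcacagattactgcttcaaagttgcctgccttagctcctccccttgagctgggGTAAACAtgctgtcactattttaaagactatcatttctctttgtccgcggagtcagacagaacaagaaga
Mmrn1: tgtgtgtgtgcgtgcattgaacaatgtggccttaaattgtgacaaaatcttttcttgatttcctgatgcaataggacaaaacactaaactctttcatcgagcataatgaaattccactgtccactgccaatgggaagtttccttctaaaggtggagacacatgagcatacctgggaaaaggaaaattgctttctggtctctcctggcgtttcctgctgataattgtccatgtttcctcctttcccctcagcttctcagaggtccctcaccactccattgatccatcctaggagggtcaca

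Of the 15 leading genes 10 had an entry in the promoter table. The ETS letters CAGGAAG or CCGGAAG, on either strand, were in 0 of these 10 windows and in 20.9% of the 32851 windows of the table. The FOX letters were in 1 of the 10 windows, that of Abcb1a, and in 3.65% of all windows. A match or its lack in such a window is a description of the letters there.

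The 7 lymphatic markers summed to 9396 CPM in the lymphatic group and to 68.6 CPM in the blood vascular groups. Reln, a secreted matrix glycoprotein, was at 3570 CPM in the lymphatic group and 3.27 CPM in the blood vascular groups, Prox1 at 903 against 9.8 CPM and Flt4 at 698 against 52.2 CPM. Lyve1 and Pdpn were at 205 and 233 CPM in the lymphatic group and at 0 UMIs in the blood vascular groups, and each had 0 UMIs in the gated nuclei of 1 library. Prox1 gave 7 and 5 UMIs in the lymphatic nuclei of WT and 51 and 3 in those of Dhx37-/-, so 1 library held most of its counts. The venous gene Nr2f2 (629 against 58.8 CPM) and the VEGF co-receptor Nrp2 (1080 against 255 CPM) were also higher in the lymphatic group, while Nrp1 was higher in the blood vascular groups (679 against 27.4 CPM).

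Both blood vascular groups held arterial and venous genes at raised levels, 5 arterial and 1 venous in group 1 and 3 of each in group 2. The arterial genes Bmx, Sox17 and Sema3g were at 245, 216 and 160 CPM in blood vascular nuclei, against 13.7, 27.4 and 0 CPM in the lymphatic group. The venous gene Vwf was at 905 against 13.7 CPM. The venular genes Ackr1 and Sele had 0 UMIs in all endothelial groups, where 3 UMIs would be 7.91 CPM. Mfsd2a, a lipid transporter of barrier capillaries, was at 265 CPM, and the fenestration gene Plvap was at 6.53 CPM in blood vascular and 150 CPM in lymphatic nuclei.

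Nuclei with lymphatic markers took a larger share of the gate in both Dhx37-/- libraries than in both WT libraries. A UMI in 3 or more of the 7 lymphatic markers was found in 6 of 114 gated nuclei in WT replicate 1 (5.26%, 95% Wilson interval 2.43 to 11) and in 1 of 88 in WT replicate 2 (1.14%, 0.201 to 6.16). It was found in 16 of 84 in Dhx37-/- replicate 1 (19%, 12.1 to 28.7) and in 3 of 41 in Dhx37-/- replicate 2 (7.32%, 2.52 to 19.4). The Dhx37-/- libraries both exceeded the WT libraries, by 9.98 percentage points in the mean (3.2% ± 2.92 against 13.2% ± 8.29, SD, n = 2 each). The exact two-sided permutation p was 0.333, the smallest that this design allows, so the difference is not shown to exceed the spread between libraries. The gap between WT replicate 1 and Dhx37-/- replicate 2 is 6 against 3 nuclei, with intervals that overlap widely. With 2 or more markers asked for, Dhx37-/- replicate 2 at 7.32% fell below WT replicate 1 at 7.89% (exact permutation p = 0.667).

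The order was the same at an equal depth. With nuclei thinned to 1000 UMIs, and 2 shallower nuclei of WT replicate 1 left out, 3 or more lymphatic markers were found in 5.36% and 1.14% of gated nuclei in WT and in 16.7% and 7.32% in Dhx37-/-. In barcodes with 3 or more round spermatid markers outside the gate, which should lack these genes, the share was 0.0418% to 0.0808%.

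The order held within nuclei of firmer endothelial identity but not over the whole testis. The first 2 sets below share most of their nuclei with the gate, so they count largely the same nuclei again and are no independent support. Among nuclei with 5 or more gate markers the numbers were 1 of 62 and 1 of 14 in WT and 7 of 28 and 1 of 5 in Dhx37-/- (4.38% ± 3.91 against 22.5% ± 3.54, exact permutation p = 0.333). Among barcodes with 10 or more of the 40 other endothelial genes, chosen without the gate markers though mostly gated, the numbers were 8 of 80 and 1 of 15 in WT and 16 of 45 and 2 of 12 in Dhx37-/- (8.33% ± 2.36 against 26.1% ± 13.4, exact permutation p = 0.333). The interval of Dhx37-/- replicate 2, 4.7 to 44.8, overlaps that of WT replicate 1, 5.15 to 18.5. Over all barcodes within the limits they were 13 and 3 in WT and 23 and 9 in Dhx37-/-, or 0.102%, 0.0347%, 0.213% and 0.0782%. There the Dhx37-/- replicate 2 library fell below WT replicate 1 and the genotypes overlapped (exact permutation p = 0.667).

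**Figure D4:**
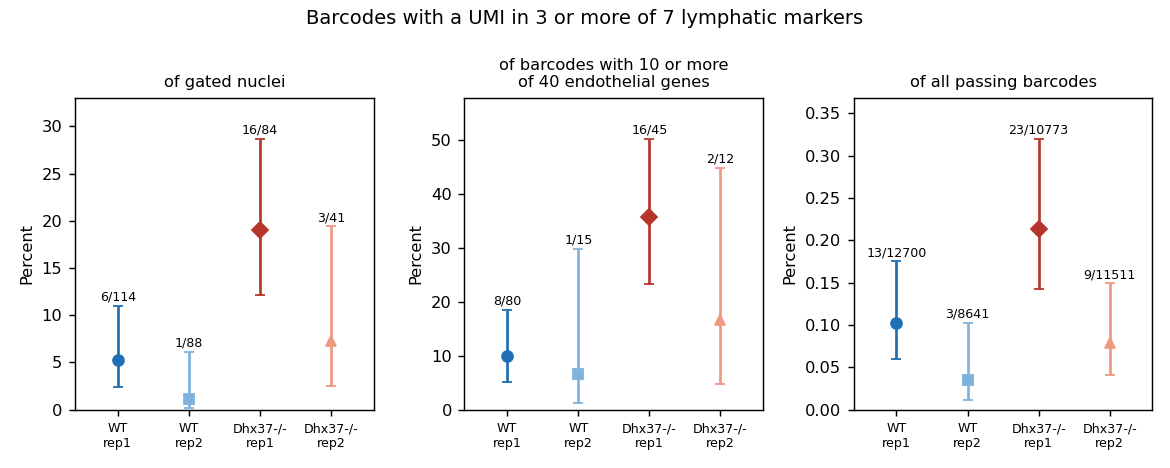
Percent of barcodes with a UMI in 3 or more of 7 lymphatic markers in each library (y axis, a scale of its own in each panel), with 95% Wilson intervals and counts above them, of gated nuclei, of barcodes with 10 or more of 40 other endothelial genes, and of all passing barcodes. Both Dhx37-/- points lie above both WT points in the first 2 panels, and in the third Dhx37-/- replicate 2 at 9 of 11511 lies below WT replicate 1 at 13 of 12700.

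The lymphatic group by clustering held 7 of 71 and 1 of 15 nuclei of the endothelial groups in WT (9.86% and 6.67%). It held 15 of 36 and 3 of 7 in Dhx37-/- (41.7% and 42.9%). The genes that define this group include genes that differed between the genotypes below, so these sizes are a description. Blood vascular nuclei numbered 64, 14, 21 and 4, which are 0.504% and 0.162% of barcodes in WT and 0.195% and 0.0347% in Dhx37-/-.

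Gene levels were compared between the genotypes on UMIs of gated nuclei summed per library. At the threshold of 0.05 on the adjusted p, edgeR's quasi-likelihood test called 0 of 8679 genes, which is 0% of genes tested. Without adjustment 170 genes (1.96%) passed it. DESeq2 called 1 gene, the glutamate receptor Grm7. Grm7 gave 12 and 16 UMIs in WT and 116 and 63 in Dhx37-/-, or 27 and 37 CPM against 306 and 272 CPM, so the genotypes did not overlap. Its log2 fold change was 3.09 ± 0.45 (SE), with an edgeR adjusted p of 0.566 and a DESeq2 adjusted p of 0.00261. It was at 182 CPM in the 5 groups that were not endothelial and at 13.2 CPM in the endothelial groups, and outside the gate its log2 fold change was 1.32.

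None of the other genes with the smallest p passed the threshold in edgeR or DESeq2. The prostaglandin D synthase Ptgds gave 5 and 5 UMIs in WT and 56 and 26 in Dhx37-/- (log2 fold change 3.40 ± 0.57 SE, edgeR adjusted p = 0.861). It had a log2 fold change of 2.48 outside the gate, where it was measured in far more nuclei. The glutathione transferase Gstm1 (2.17) and Cypt3 (2.19) had the next smallest p with higher levels in Dhx37-/-. With lower levels these were Nav3 (-2.62), Gm10999 (-3.38), the glycine receptor Glra3 (-3.58), Gm42826 (-1.77) and the Notch coactivator Maml3 (-1.72), all at an edgeR adjusted p of 1. Nav3 gave 37 and 33 UMIs in WT and 4 and 4 in Dhx37-/-, with 0 CPM in the blood vascular groups. Of the 9 genes named here, Grm7 included, only Maml3 was tested in nuclei with 5 or more markers, where its log2 fold change was -0.94 with an edgeR adjusted p of 0.775.

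In nuclei with 5 or more gate markers edgeR called 11 of 1584 genes (0.694%), 8 higher in Dhx37-/- (0.505%) and 3 lower. The 8 higher genes were the metalloprotease Tll1, the transcription factors Foxp2, Glis3 and Maf, the muscarinic receptor Chrm3, the vesicle protein Stxbp6, the phospholipase Plce1 and Pgm5. They were called with log2 fold changes of 3.06 to 5.31 and edgeR adjusted p of 0.000284 to 0.00746. The filter on low counts asks for a minimum level in 2 libraries. These genes passed it through Dhx37-/- alone, at 238 to 774 CPM there against 0 to 89.1 CPM in WT. In Dhx37-/- replicate 2 these levels are 4 to 13 UMIs from 5 nuclei. Their place among the tested genes thus depended on the group where they are high. Tll1 gave 3 and 0 UMIs in WT and 61 and 5 in Dhx37-/-, or 16.4 and 0 CPM against 693 and 298 CPM. Maf gave 5 and 4 UMIs against 33 and 7. The genotypes did not overlap in these 8 genes, which follows largely from choosing them by this test, and the share of all tested genes without overlap was not counted.

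With libraries pooled, all 8 genes were at least 4 times as high in the lymphatic as in the blood vascular groups, with 10 CPM added to both. Within Dhx37-/- libraries all 8 were, and within WT libraries 7 of 8, the other being Glis3 at 35.4 against 22.4 CPM. The share of all 1584 tested genes at such a ratio was not counted. The lymphatic group held mostly Dhx37-/- nuclei and the blood vascular groups mostly WT nuclei, so choosing genes higher in Dhx37-/- favours the pooled order. Pooled, Tll1 was at 957 against 55.5 CPM, Foxp2 at 916 against 6.53, Plce1 at 1354 against 22.9, Maf at 1299 against 39.2 and Chrm3 at 821 against 75.1 CPM. None of them had the counts to be tested in blood vascular nuclei alone, where edgeR called 0 of 1169 genes (0%), and 74 (6.33%) passed 0.05 without adjustment. Among nuclei with 5 or more gate markers the share with 3 or more lymphatic markers was 1.61% and 7.14% in WT and 25% and 20% in Dhx37-/-. Like these genes, it was higher in both Dhx37-/- libraries. Within a genotype the genes did not share 1 order, since in WT Tll1 was at 16.4 and 0 CPM and Foxp2 at 10.9 and 22.3 CPM. The part of this share in the difference of the genes was not tested. Inside the lymphatic group both Dhx37-/- libraries were above both WT libraries in 7 of the 8 genes, all but Plce1. The 8 genes were chosen by this difference in nuclei that partly belong to this group, and the clustering was open to them. Their order there is a description and no further support, and the share of all genes with such an order was not counted. Foxp2 gave 3 and 1 UMIs there in WT and 58 and 5 in Dhx37-/-, or 145 and 132 CPM against 1501 and 803 CPM, and Tll1 gave 4 and 0 UMIs against 61 and 5. The lymphatic group held 7 and 1 nuclei in WT and 15 and 3 in Dhx37-/-, and no fit was made within it. Only 1 of the 8 had a log2 fold change above 0 outside the gate, which was Maf with 0.41.

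The 3 genes called lower were Agbl1, Pcdh9 and Rn18s-rs5, an 18S ribosomal RNA related sequence. Agbl1 gave 34 and 16 UMIs in WT and 0 and 0 in Dhx37-/-, which is at least 7.68-fold lower against a floor of 3 UMIs over both Dhx37-/- libraries. It passed the filter on low counts through its WT libraries alone, at 186 and 356 CPM. The cadherin Pcdh9 gave 80 and 27 UMIs against 5 and 3 (log2 fold change -2.58 ± 0.60 SE, edgeR adjusted p = 0.0347). In WT replicate 2 a single nucleus, the 1 lymphatic nucleus of that library, held 15 of the 16 Agbl1 UMIs and 26 of the 27 Pcdh9 UMIs, and the 14 blood vascular nuclei of the library gave 1 UMI of each gene. Rn18s-rs5 gave 35340 and 11289 CPM in WT and 5189 and 5774 CPM in Dhx37-/-, and its reads can be split with other copies of ribosomal RNA. All 3 also had a log2 fold change under 0 outside the gate, at -0.43, -0.70 and -1.99. There Rn18s-rs5 was at 19711 CPM in WT replicate 1, 4002 in WT replicate 2 and 3028 and 3326 in Dhx37-/-, so WT replicate 1 carried most of its difference, and Agbl1 overlapped between the genotypes. Agbl1 and Pcdh9 were at 796 and 1409 CPM in the gated groups that were not endothelial, above their 137 and 335 CPM in the endothelial groups.

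**Figure D5:**
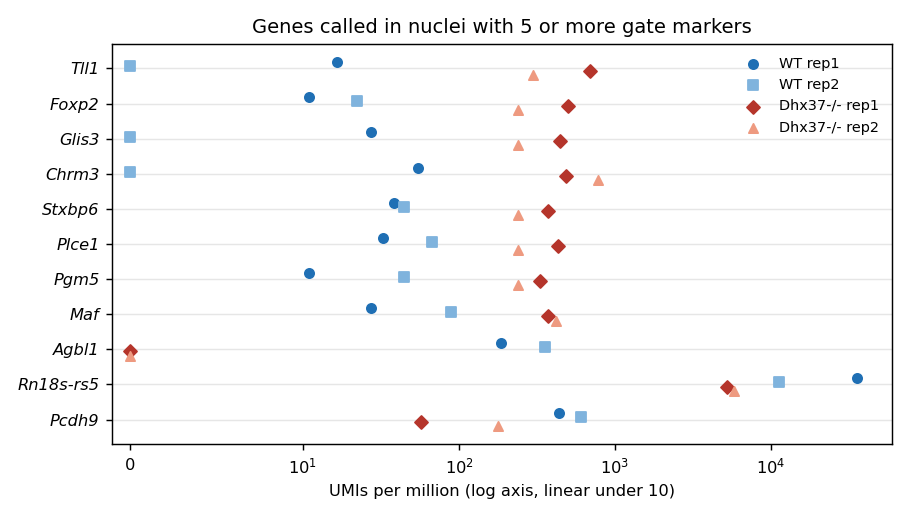
Level of the 11 genes called in nuclei with 5 or more gate markers (rows), in CPM (x axis, log scale, linear under 10), with 1 point per library. For the upper 8 genes both Dhx37-/- points lie to the right of both WT points, and for Agbl1, Rn18s-rs5 and Pcdh9 they lie to the left.

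Summing the 3 endothelial groups in place of nuclei with 5 or more markers, a set added after its genes had been seen, gave 29 calls of 1936 genes (1.5%), 22 of them higher in Dhx37-/- (1.14%). All 11 genes above were among the 29, but the 129 nuclei of these groups include all 109 nuclei with 5 or more markers, so this is no independent support. With libraries pooled, all 22 higher genes had a higher level in the lymphatic group than in the blood vascular groups. The share of all 1936 tested genes with this order was not counted, and the clustering that made the groups was open to these genes, so the order is a description. Of them 17 were at least 4 times as high, here and in the next sentence with 10 CPM added to both levels. The lymphatic group came mostly from Dhx37-/- and the blood vascular groups mostly from WT, and within each genotype the order was kept by 20 of the 22 genes in WT and 18 in Dhx37-/-, with 12 and 17 at least 4 times as high. The genes that did not keep it were Prm1 and Tnp1 in WT and Tnp1, Tnp2, Bmp6 and Tubb4b in Dhx37-/-. Prm1, Tnp1 and Tnp2 are spermatid transcripts that are plentiful as free RNA. The 22 genes included the lymphatic markers Ccl21a and Prox1 and the ligand Bmp6, which passed the filter on low counts through their Dhx37-/- libraries alone. The 7 lower genes included Dach1, a transcription factor of arterial growth on the list of other endothelial genes. Dach1 gave 155 and 47 UMIs in the endothelial groups of WT and 26 and 7 in those of Dhx37-/-, or 755 and 1008 CPM against 243 and 344 CPM (log2 fold change -1.68, edgeR adjusted p = 0.02). All of these UMIs lay in the blood vascular groups, where alone it was not called (-1.19, edgeR adjusted p = 0.672).

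The 11 calls in nuclei with 5 or more markers rested on few nuclei and on 1 library in particular. Dhx37-/- replicate 2 held 5 such nuclei with 16798 UMIs, and Dhx37-/- replicate 1 held 28 with 88076 UMIs. Without Dhx37-/- replicate 1 only 5 of the 11 genes could be tested and 1, Chrm3, was called by edgeR. edgeR called 5 of the 11 without WT replicate 1 and 8 without WT replicate 2. Without Dhx37-/- replicate 2 it called 38 genes, all 11 among them. DESeq2 called 3 genes, Tll1, Chrm3 and Rn18s-rs5.

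Genes of named pathways are given by their lists in gated nuclei and in nuclei with 5 or more markers, where all genes tested had a median log2 fold change of -0.05 and -0.01. Since edgeR called 0% of all genes tested in gated nuclei, a list with 0 calls there does not differ from the background and does not show that its genes were unchanged. Among the VEGF and angiopoietin ligands 0 of 4 tested genes were called in gated nuclei and 0 of 3 in nuclei with 5 or more markers. Vegfc, which acts on the lymphatic receptor Flt4, gave 130 and 10 UMIs in blood vascular nuclei of WT and 47 and 17 in those of Dhx37-/-, or 704 and 256 CPM against 686 and 1205 CPM, so the genotypes overlapped. Vegfa was at 134 CPM and Angpt1 at 150 CPM in blood vascular nuclei. Of the receptors and co-receptors outside the gate, Flt4, Nrp1, Nrp2 and Tie1, 0 of 4 were called. Nrp1 had a log2 fold change of -1.03 in gated nuclei and -0.77 in nuclei with 5 or more markers, and Nrp2 of 0.45 and 0.57.

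Genes of barriers and transport were far above the level outside the gate, and more so in blood vascular than in lymphatic nuclei. Their 20 genes summed to 7334 CPM in blood vascular and 2202 CPM in lymphatic nuclei, against 628 CPM outside the gate. Per library the blood vascular sums were 7224 and 9317 CPM in WT and 6597 and 6878 CPM in Dhx37-/-. Of 17 genes tested in gated nuclei 2 had a log2 fold change above 0 and 0 were called, with a median of -0.67. In nuclei with 5 or more markers the median over 12 genes was -0.28 and 0 were called. The share of gated nuclei with 5 or more markers, 54.4% and 15.9% in WT and 33.3% and 12.2% in Dhx37-/-, moved with the sums of the list over all gated nuclei, 3391 and 1338 CPM in WT and 1823 and 1108 CPM in Dhx37-/-, and its part in the medians was not tested. The tight junction genes Cldn5 (-0.50 and 0.08) and Tjp1 (-0.78 and -0.27) and the drug pump Abcg2 (-0.67 and -0.65) illustrate the values in the 2 sets.

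Ligands by which vessels act on neighbouring cells followed the same split in blood vascular nuclei, at 2952 CPM against 451 CPM in lymphatic nuclei. Kitl, the ligand of the Kit receptor of spermatogonia and Leydig cells, was at 794 against 13.7 CPM, the chemokine Cxcl12 at 650 against 27.4 CPM and Pdgfd at 1133 against 260 CPM. Kitl gave 162 and 41 UMIs in blood vascular nuclei of WT and 30 and 10 in those of Dhx37-/-. Its log2 fold change was -1.56 in gated nuclei and -1.05 in nuclei with 5 or more markers (edgeR adjusted p = 0.456). Of 14 ligands 6 were tested in gated nuclei and 5 in nuclei with 5 or more markers, 0 were called in either, and Gdnf, Cxcl2, Apln and Hgf had 0 UMIs in the endothelial groups.

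BMP and TGF-beta genes were at similar sums in both kinds of endothelial nuclei, 2838 and 2927 CPM. Bmpr2 was at 627 CPM in blood vascular and 315 CPM in lymphatic nuclei, and its target Id3 at 343 and 82.1 CPM. Of the pathway's 17 genes 13 were tested in gated nuclei and 0 were called (median log2 fold change -0.38). Bmp6, called higher in the endothelial groups (3.25, edgeR adjusted p = 0.00902), gave 6 and 0 UMIs in WT and 26 and 4 in Dhx37-/- there, and its log2 fold change was 0.81 in gated nuclei. Of 14 Notch genes 4 were tested and 0 called. The ligand Jag1 was at 216 CPM and the receptor Notch1 at 88.2 CPM in blood vascular nuclei. With 10 CPM added to both levels, 5 of the 14 genes were at least 4 times as high in the endothelial groups as outside the gate.

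The lists of activation, hypoxia, immediate early and p53 target genes were all higher in the endothelial groups than outside the gate. The 15 genes of leukocyte adhesion and activation summed to 886 CPM against 130 CPM outside. Of these, 5 were at least 4 times as high with 10 CPM added to both levels, while Sele, Ackr1, Ccl2, Cxcl1, Cxcl10 and Il6 had 0 UMIs in the endothelial groups. The hypoxia genes summed to 981 against 209 CPM, the immediate early genes to 722 against 305 CPM and the p53 targets to 619 against 309 CPM. Between the genotypes 0 of 4 tested genes of the activation list were called in gated nuclei. The p53 targets, of interest because faulty ribosome assembly is known to stabilise p53, summed to 624 and 686 CPM in the endothelial groups of WT and 569 and 689 CPM in those of Dhx37-/-, which overlap. Of 5 tested p53 targets 0 were called in gated nuclei, and Mdm2 had a log2 fold change of 0.23. Of 5 tested hypoxia genes 0 were called, and Epas1, a hypoxia-inducible factor of endothelium, was at -1.07 in gated nuclei and -0.54 in nuclei with 5 or more markers. Of 5 tested immediate early genes 0 were called, and the flow-responsive Klf2 was at 0.25 and 0.72.

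Of the subtype lists with more than 1 tested gene, only the lymphatic list had the same sign in every tested gene, and each list had few. Its genes are the markers by which lymphatic nuclei were counted above. The shared sign thus restates that share and is no separate support. All 5 tested lymphatic genes had a log2 fold change above 0 in gated nuclei (median 1.06) and 0 were called. In nuclei with 5 or more markers all 3 tested genes did, with 3 under 0.05 before adjustment (as were 8.52% of all 1584 genes) and 0 called: Ccl21a 3.34 (edgeR adjusted p = 0.101), Mmrn1 1.72 (0.447) and Reln 1.63 (0.162). Ccl21a gave 2 and 3 UMIs in WT and 21 and 5 in Dhx37-/-, and it passed the filter on low counts through its Dhx37-/- libraries alone. The arterial list had a median log2 fold change of -0.79 over 4 genes in gated nuclei, the venous list 0.43 over 4 genes and the capillary list -0.94 for 1 gene, with 0 called in each. In nuclei with 5 or more markers these medians were -0.29 over 5 genes, 0.25 over 2 genes and -0.28 for 1 gene. The 40 other endothelial genes had 37 tested in gated nuclei, 8 of them with a log2 fold change above 0, a median of -0.84 and 0 called, and a median of -0.20 over 29 genes in nuclei with 5 or more markers.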

How the data were processed

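The authors aligned the reads with Cell Ranger (7.2.0 in the file headers) and deposited raw UMI counts, not normalized, for every gene in every barcode seen. The sources differ on the genome build, so no coordinates of the files were used, and whether intronic reads were counted is not given in the sources used here.

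Gated nuclei were clustered in scanpy 1.11.5 by Leiden on 2000 variable genes without the gate markers (10 PCs, 20 neighbours, resolution 0.5). Doublets called by Scrublet were kept in the main results. UMIs were summed per library and compared with edgeR 4.0.16 (TMM, default filter on low counts, quasi-likelihood F-test, two-sided, Benjamini-Hochberg over all genes tested except the gate markers). DESeq2 1.42.0 was an alternative. On simulated counts the fit of gated nuclei missed moderate changes and found most large ones, so a gene that was not called may still differ. Shares were compared by exact permutation of the 4 libraries.

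The members, lists and tests were chosen with earlier results of these data known. Genes named are the gate markers, the 15 genes with the highest ratio of gated to other barcodes (at least 30 UMIs), the genes called or, failing these, the 5 higher and 5 lower of smallest p, and up to 4 genes of each list by UMIs. Others were chosen after their values were seen. Some results under this rule are not reported here. Beyond the word replicate nothing says that libraries came from separate animals, so p-values measure the spread between these libraries.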

Additional observations from a re-analysis of the deposited data

How the results depend on the processing

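The mean share of gated nuclei was lower in Dhx37-/- under all alternatives run, although the libraries overlapped under 5 of them (2, 4 or 5 markers, thinning to 1000 UMIs, and no Tek), from -10.4 points as a share of barcodes with somatic markers to -0.0169 points without nuclei holding 3 markers of another class, and from -0.602 to -0.178 points with a library left out. No p fell under the 0.333 that the design allows. Genes called in gated nuclei by edgeR rose from 0 to 7 with at least 4 gate markers, 11 with at least 5, 10 with barcodes thinned to 1000 UMIs before the gate, 9 with no filter on low counts and 29 in the endothelial groups, a set added after seeing the data. DESeq2 called 1. The cause was not tested. With 1 library left out, where a lone library is assumed to vary like the other group, 6 to 32 genes were called. Among nuclei with 5 or more markers, 8 to 38 genes were called with a library left out and 3 by DESeq2, against 11. A comparison without nuclei holding 3 markers of another class was not run because almost no nuclei were left.

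For the 9 genes named in the gated comparison, 10 values passed the threshold under an alternative and the other 166 kept direction and side of the threshold. Fitting the replicate number as a block gave 0 calls in gated nuclei (563 genes at an unadjusted p under 0.05) and 11 in nuclei with 5 or more markers, 10 of them shared. Deviations from the genotype means had a correlation of 0.411 in same-numbered libraries and -0.411 in crossed ones. With 2 libraries per genotype each deviation is the reverse of the other, so both pairs give 1 value, which does not establish a pairing. Clustering with 30 PCs gave 6 groups and resolution 1.0 gave 11, with 128 and 129 nuclei in endothelial and 27 and 26 in lymphatic groups. Depth limits all values of Dhx37-/- replicate 2, where 1 UMI in its 7 endothelial nuclei is 49.2 CPM.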

Other observations

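The Sertoli gene Wt1, a transcription factor, was seen in blood vascular nuclei of each library. It gave 105 and 41 UMIs in the blood vascular groups of WT and 38 and 6 in those of Dhx37-/-, or 569 and 1049 CPM against 555 and 425 CPM. Both Dhx37-/- libraries lay below both WT libraries, and the difference was not tested apart from the fit over all genes, which called 0 genes in these groups. The lymphatic group had 0 UMIs of Wt1, where 3 UMIs would be 41 CPM, and barcodes outside the gate had 5.85 to 46 CPM. In nuclei with 5 or more gate markers Amh and Fshr, other genes of the Sertoli list, had 0 UMIs, and Sox9, Rhox5 and Cldn11 had 1 each. Amh was at only 0.032 to 0.275 CPM outside the gate as well. Clu was at 104 to 272 CPM against 22.9 to 108 CPM outside.

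Ebf1, a transcription factor on the fibroblast list, was also seen in nuclei with 5 or more markers. It was at 1783 and 3073 CPM in WT and 2021 and 1369 CPM in Dhx37-/-, with 52.7 to 136 CPM outside the gate. In the blood vascular groups it gave 336 and 143 UMIs in WT and 135 and 17 in Dhx37-/-. In the lymphatic group its level was 241 and 265 CPM in WT and 1683 and 964 CPM in Dhx37-/-, from 5, 2, 65 and 6 UMIs.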
